A study of Mus musculus with 33 samples.

Results

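The 10 genes Mrc1, Cd36, Lyz2, Adgre1, Csf1r, C1qa, C1qb, C1qc, Ccl8 and Cd68 are commonly used as markers or products of tissue macrophages, although monocytes, neutrophils and other cells express several of them, and their reads were followed in regulatory T cells (Tregs) sorted from islet grafts. They were chosen by symbol, each matched to 1 of the 31054 features counted in all 33 libraries. The label that describes them as macrophage genes in graft Treg libraries held for few of them. Graft Tregs replicate 2 had no read of any of the 10, and 5 genes, Mrc1, Cd36, Adgre1, Csf1r and C1qa, had no read in all 3 graft Treg libraries. Lyz2, Ccl8, C1qb and C1qc were the 4 genes above 3 reads in any graft Treg library, so the results are told by gene rather than as a macrophage signal.

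All cells came from DEREG mice, which carry a diphtheria toxin receptor-EGFP fusion driven by the Foxp3 promoter, so that Tregs are sorted as CD4+GFP+ cells. Tolerant mice received 4000 islet equivalents of porcine neonatal islet cell clusters (NICC) under the kidney capsule with CTLA4-Fc and the anti-CD40L antibody MR-1 (500 µg per mouse at each dose of MR-1), and were sampled at day 100. Naive mice had neither a transplant nor treatment. From tolerant mice came graft Tregs (CD4+GFP+ cells, not split by CD127), CD127hi and CD127-/lo Tregs of spleen (SP) and graft-draining lymph node (DLN), and splenic CD4+ Foxp3- cells (SP/tolerant CD4+) and CD45+CD4- cells. From naive mice came SP and DLN Tregs and the splenic CD4+ and CD45+CD4- subsets, giving 11 subsets of 3 libraries each. Per the study, tolerant recipients and the naive mice used for spleen were male, and the naive mice used for lymph node were female. The Treg gates took single live cells of lymphocyte scatter, while CD45+CD4- cells were a mixture of the other splenic leukocytes left after CD4 bead depletion, so they are a reference for myeloid transcripts and not a pure macrophage population. The study describes each library as a pool of several mice but counts too few naive mice for separate pools in every library, so naive libraries of a subset may share animals, and the tolerant subsets were drawn from the same group of recipients. Libraries are therefore not shown to be independent animals, and p-values measure the spread between these libraries, which may be partly technical.

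Macrophages depend on the receptor for CSF1, encoded by Csf1r, and carry surface receptors for debris, sugars and lipids. They also secrete lysozyme, chemokines and C1q, the recognition molecule that starts the classical complement pathway. C1q is built from chains of 3 genes, C1qa, C1qb and C1qc, which lie together on chromosome 4 between 136880129 and 136898803 (GRCm38, minus strand), a span of 18.7 kb, and each complete molecule needs all 3 chains.

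Sequence immediately upstream of the annotated starts is shown for the 4 genes that exceeded 3 reads in a graft Treg library, because they are the only ones with graft signal to compare. The stretches come from the RefSeq promoter table (GRCm38.p6), 5′ to 3′ on the gene's own strand, ending before the first annotated base, and capitals mark a match to GAGGAA, the core bound by PU.1, or to TATAAA, the TATA box, on either strand.
Lyz2 (chr10:117282322-117282522, minus strand): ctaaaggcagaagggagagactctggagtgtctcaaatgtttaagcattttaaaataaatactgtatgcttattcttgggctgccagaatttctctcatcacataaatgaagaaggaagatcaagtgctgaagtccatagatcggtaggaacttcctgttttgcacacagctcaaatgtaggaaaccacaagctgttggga
Ccl8 (chr11:82114935-82115184, plus strand): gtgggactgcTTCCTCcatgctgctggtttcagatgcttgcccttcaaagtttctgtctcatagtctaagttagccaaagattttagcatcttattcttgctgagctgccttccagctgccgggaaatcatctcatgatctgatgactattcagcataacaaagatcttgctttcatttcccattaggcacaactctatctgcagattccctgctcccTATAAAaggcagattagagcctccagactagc
C1qb (chr4:136886201-136886450, minus strand): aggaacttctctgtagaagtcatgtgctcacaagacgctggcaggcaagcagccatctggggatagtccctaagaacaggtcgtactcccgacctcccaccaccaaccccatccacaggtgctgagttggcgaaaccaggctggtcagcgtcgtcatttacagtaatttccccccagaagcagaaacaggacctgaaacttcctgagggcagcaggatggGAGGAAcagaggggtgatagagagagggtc
C1qc (chr4:136893066-136893164, minus strand): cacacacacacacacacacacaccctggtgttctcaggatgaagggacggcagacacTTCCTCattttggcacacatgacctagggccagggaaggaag
Of the 10 genes, 7 had an entry in that table, and in the 300-base windows (250 bases before and 50 after the start) 5 of the 7 held GAGGAA, against 28.3% of all 32851 windows. Only Ccl8 held TATAAA, which 13.6% of windows hold, and none of the 7 held GAAANNGAA, a spacing of interferon regulatory factor sites found in 8.56% of windows. These matches describe letters in the windows. The marked matches do not overlap one another.

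The 3 graft Treg libraries carried the transcripts of the cells they were sorted for. Foxp3, the transcription factor that defines Tregs, stood at 529, 600 and 672 CPM (reads scaled to the library's TMM-adjusted total) in graft Tregs replicates 1, 2 and 3, and all 8 T cell and all 6 Treg markers examined were above 3 reads in each. Kidney transcripts were present unevenly, with Kap, a proximal tubule protein, at 114, 887 and 13.4 CPM. Reads on genes numbered 2550698 to 4615283 per spleen or graft library and 844039 to 1935323 per DLN library, and 3 reads, taken as the limit of detection, corresponded to 0.812 to 0.894 CPM in graft Tregs and to 1.64 to 3.11 CPM in DLN libraries, covering counting error only.

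**Figure D1:**
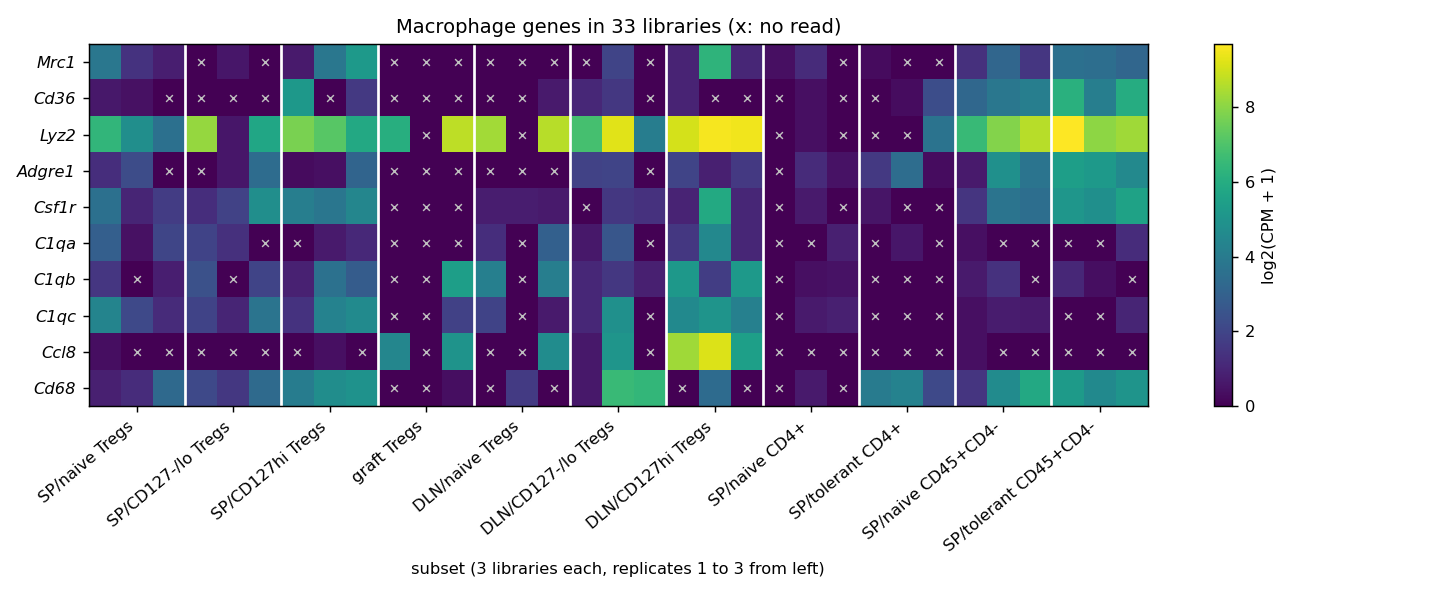
Level of the 10 genes (rows) in each of 33 libraries (columns, 3 per subset in replicate order), as log2(CPM + 1) by colour, with a cross where no read was counted. The graft Treg columns hold crosses in all rows for replicate 2 and in 5 rows for all 3 replicates, while Lyz2 is bright in most Treg subsets and in CD45+CD4- cells.

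Lysozyme gave most of the graft reads. Lyz2, which encodes the lysozyme secreted by macrophages, monocytes and neutrophils, stood at 65.8, 0 and 427 CPM in graft Tregs replicates 1, 2 and 3, from 243, 0 and 1432 reads. It made up 75.7% and 84.9% of the summed reads of the 10 genes in replicates 1 and 3. The 3 libraries thus ran from empty to rich in Lyz2, and their range overlapped that of each splenic Treg subset. In SP/naive Tregs Lyz2 was at 81.5, 26.4 and 10.9 CPM, in SP/CD127-/lo Tregs at 287, 0.503 and 51.6 CPM, and in SP/CD127hi Tregs at 211, 144 and 55.9 CPM. Lyz2 thus appeared in splenic Tregs of naive mice as well as of tolerant mice. The log2 difference of graft Tregs was 2.05 ± 0.77 (SE) from SP/naive Tregs (adjusted p = 0.345), 0.54 ± 0.74 from SP/CD127-/lo Tregs (adjusted p = 1) and 0.26 ± 0.74 from SP/CD127hi Tregs (adjusted p = 1) in edgeR's quasi-likelihood test. None of the 3 passed, and all 3 turned negative without graft Tregs replicate 3 (-0.27, -1.78 and -2.05). Lyz2 was called higher than in SP/naive Tregs in 1 of 14 alternatives, without SP/naive replicate 1 (3.14, adjusted p = 0.0326), in a range of adjusted p from 0.0326 to 1.

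Over the 11 subsets the mean Lyz2 level was highest in DLN/CD127hi Tregs (669 ± 118 CPM, SD, n = 3) and next in SP/tolerant CD45+CD4- cells (469 ± 311 CPM). It was 247 ± 319 CPM in DLN/CD127-/lo Tregs, 243 ± 154 CPM in SP/naive CD45+CD4- cells, 242 ± 213 CPM in DLN/naive Tregs and 164 ± 230 CPM in graft Tregs, followed by SP/CD127hi (137 ± 77.6 CPM), SP/CD127-/lo (113 ± 153 CPM) and SP/naive Tregs (39.6 ± 37.1 CPM). The pair of CD4+ Foxp3- subsets came last, at 3.95 ± 6.84 CPM in tolerant and 0.106 ± 0.183 CPM in naive mice, where 4 of the 6 libraries had no Lyz2 read. Each subset overlapped in range with its neighbours in this order, so the order is not resolved between neighbours. Lyz1, a near-identical paralog 5.5 kb away, had 159 reads over all 33 libraries against 16283 for Lyz2, and 2 in graft Tregs. Reads that fit both paralogs cannot be assigned with certainty, and their number was not examined.

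Ccl8 was the 1 gene of the 10 that passed the test between graft and splenic Tregs. Ccl8 encodes a secreted chemokine that attracts leukocytes, and it was at 21.1, 0 and 30.4 CPM in graft Tregs, from 78, 0 and 102 reads. Splenic subsets were almost empty of it: 1 read in SP/naive Tregs, 1 in SP/CD127hi Tregs and none in SP/CD127-/lo Tregs, both CD4+ subsets or SP/tolerant CD45+CD4- cells. The ranges still overlapped, because graft Tregs replicate 2 had no read. Ccl8 was called higher in graft than in SP/naive Tregs (ratio 178, counting interval 31.5 to 7050, adjusted p = 0.044) and than in SP/CD127hi Tregs (ratio 192, interval 34.1 to 7640, adjusted p = 0.0483). Against SP/CD127-/lo Tregs it was at least 20.8-fold higher (adjusted p = 0.0142), and against SP/tolerant CD45+CD4- cells at least 19.3-fold higher (adjusted p = 0.000969), with 3 reads per library as the limit. The intervals are of reads summed over each subset's libraries and cover counting error only, since amplified reads are not independent molecules and the spread between libraries, such as the 0 of graft Tregs replicate 2, does not enter them.

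These calls depended on single libraries and on the tool. Against SP/naive Tregs the Ccl8 call was lost in the likelihood ratio test (adjusted p = 0.0794), in DESeq2 (0.539), without graft Tregs replicate 3 (0.0813) and without any 1 of the 3 SP/naive libraries (0.0641, 0.252 and 0.349). It was also lost with a stricter filter on low counts (0.417), with libraries of the same sequencer (0.367) and with the compared subsets alone (0.622), so that 5 of 14 alternatives kept it, in a range from 0.0121 to 0.622. Against SP/CD127hi Tregs it was lost without graft Tregs replicate 3 (0.0832) or SP/CD127hi replicate 1 (0.184) or 3 (0.199), in the likelihood ratio test (0.0612), in DESeq2 (0.446), with the stricter filter (0.38), the same sequencer (0.275) and the compared subsets (0.587), and 6 of 14 kept it, in a range from 0.0117 to 0.587. Against SP/CD127-/lo Tregs it was lost without any 1 of the SP/CD127-/lo libraries (0.127, 0.133 and 0.149), in DESeq2 (0.412), with the stricter filter (0.401), the same sequencer (0.283) and the compared subsets (0.673), and 7 of 14 kept it, in a range from 0.00234 to 0.673. Against SP/tolerant CD45+CD4- cells 11 of 14 alternatives kept it, including each library left out, and DESeq2 (0.205), the libraries of the same sequencer (0.0599) and the compared subsets alone (0.103) did not, in a range from 0.000238 to 0.205.

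Ccl8 was also read in the draining lymph node. DLN/CD127hi Tregs had 320, 582 and 43.5 CPM, DLN/naive Tregs 0, 0 and 25.4 CPM, and DLN/CD127-/lo Tregs 0.545, 31.9 and 0 CPM. All 3 CD127hi libraries were thus above all libraries of both other DLN subsets. The log2 difference was 5.20 ± 1.44 from DLN/naive Tregs (adjusted p = 0.043) and 4.89 ± 1.42 from DLN/CD127-/lo Tregs (adjusted p = 0.0962). The second became a call in 4 of 14 alternatives, with libraries of the same sequencer (0.0377), with the compared subsets alone (0.000625) and without DLN/CD127hi replicate 3 (0.0384) or DLN/CD127-/lo replicate 2 (0.0146), in a range from 0.000625 to 0.553. The first call was lost without DLN/CD127hi replicate 1 (0.133) or 2 (0.215), without DLN/naive replicate 1 (0.176) or 2 (0.16), in the likelihood ratio test (0.0721), in DESeq2 (0.44), with the stricter filter (0.165) and with the replicate block (0.127), and 6 of 14 alternatives kept it, in a range from 0.00065 to 0.44. Tolerant recipients were male and the mice that gave DLN/naive Tregs were female, so sex and treatment cannot be told apart in that comparison. Markers of other cells were higher there too, 5 of 8 B cell markers (Ms4a1, Cd79b, Cd22, Fcer2a and Cr2), 2 of 8 granulocyte and monocyte markers (S100a8 and Ly6c2) and Cd8b1 of 6 CD8 and NK cell markers. Of the 31 further macrophage markers tested, Fcer1g, a signalling chain of Fc receptors, was higher, at 94.4, 128 and 30.1 CPM against 0.71, 0 and 0.62 CPM (adjusted p = 0.000269). Tyrobp, a signalling adaptor of myeloid and NK cells, was at 78.8, 84.3 and 105 CPM in DLN/CD127hi Tregs and had no read in DLN/CD127-/lo Tregs, and it was called higher in that comparison (adjusted p = 5.71e-07) and in the difference of the CD127 contrast between DLN and spleen (adjusted p = 0.00293). In DLN/naive Tregs Tyrobp was at 30.5, 11.2 and 22.9 CPM (adjusted p = 0.344). Against DLN/CD127-/lo Tregs, S100a8 and Cd8a were also called higher in DLN/CD127hi Tregs, and 0 of 8 B cell markers were. The B cell list summed to 638, 615 and 142 CPM in DLN/CD127hi and to 39.1, 11.9 and 5.58 CPM in DLN/naive Tregs, and the granulocyte and monocyte list to 72, 141 and 50.8 CPM against 2.84, 3.5 and 3.1 CPM. The CD8 and NK cell list summed to 194, 4.73 and 120 CPM against 1.42, 8.41 and 70.1 CPM. In sorted CD4+ Foxp3- cells the granulocyte and monocyte list also summed to 58 to 73.5 CPM in naive and 62.6 to 73.6 CPM in tolerant mice. The part of these markers in the Ccl8 difference was not tested. Graft and DLN libraries were sequenced on different instruments, so organ and instrument cannot be told apart and the 2 were not tested against each other.

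**Figure D2:**
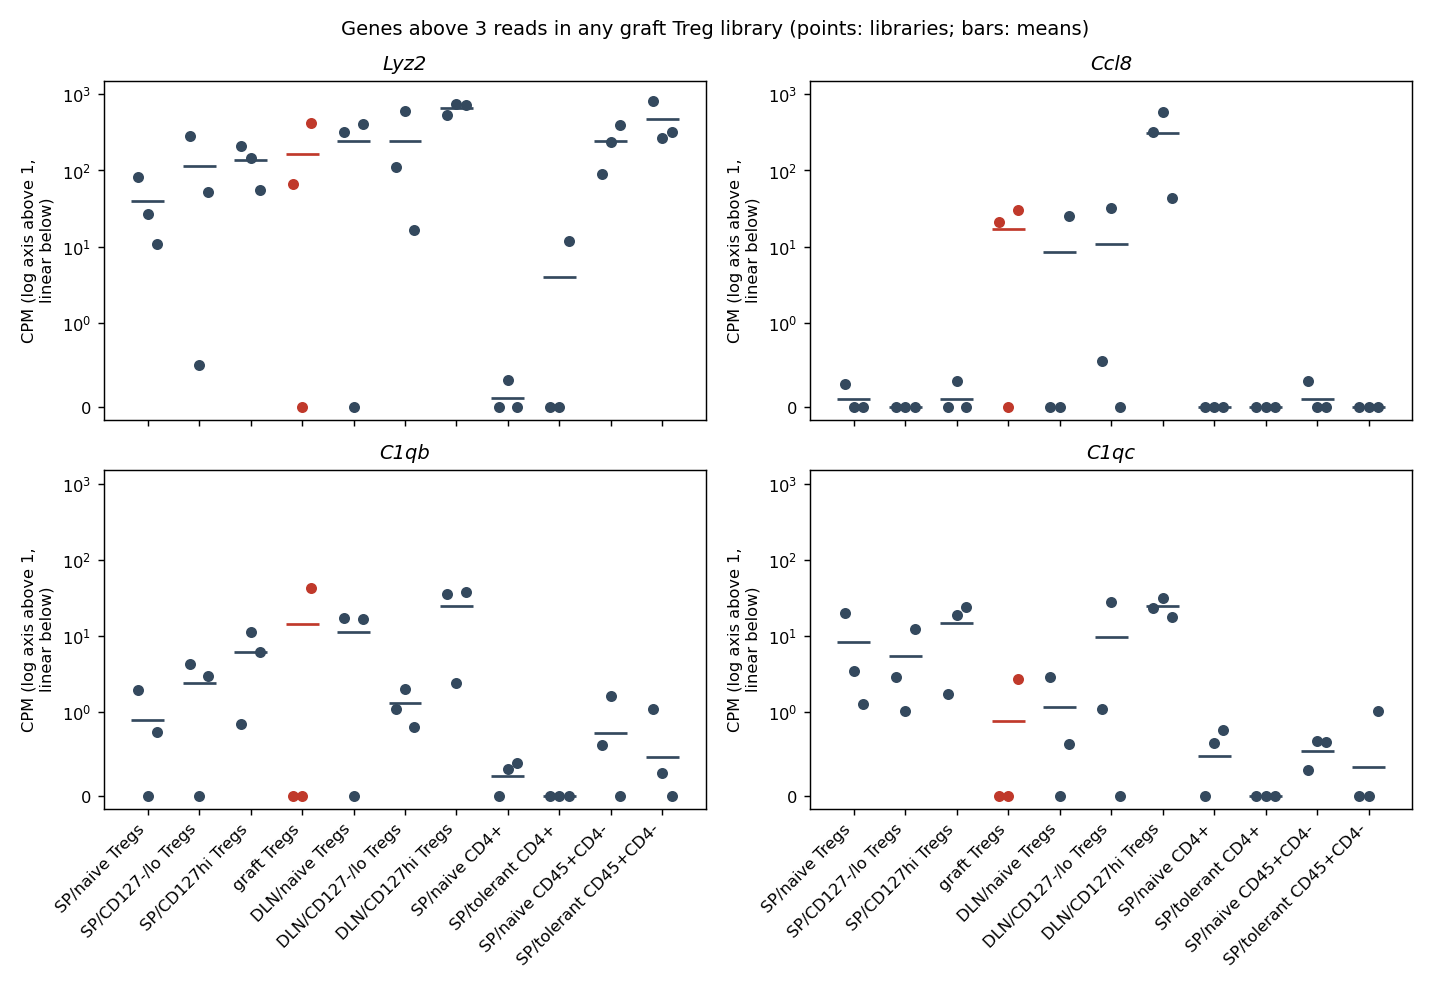
CPM of Lyz2, Ccl8, C1qb and C1qc in each library (points) with subset means (bars), on a logarithmic axis above 1 CPM and a linear one below, graft Tregs in red. Graft Tregs replicate 2 is at 0 in all 4 panels, and Ccl8 is near 0 in every splenic subset but reaches 30.4 CPM in graft Tregs and 582 CPM in DLN/CD127hi Tregs.

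The C1q chains did not appear together in graft Tregs. C1qb had 0, 0 and 42.6 CPM (143 reads in replicate 3), C1qc had 0, 0 and 2.68 CPM (9 reads in replicate 3), and C1qa had no read. All C1q reads of the graft therefore came from 1 library, and from mostly 1 chain. DLN/CD127hi Tregs were the subset with the most even C1q total, with 60.3, 56 and 56 CPM summed over the chains. Within it the chains differed by library, C1qb at 35, 2.36 and 37.3 CPM, C1qc at 23.4, 31.5 and 17.6 CPM and C1qa at 1.95, 22.1 and 1.04 CPM. The summed C1q level was 2.52 to 31 CPM in the 9 splenic Treg libraries and 0.275 to 2.38 CPM in the 6 CD45+CD4- libraries. No C1q gene passed the test in any comparison of graft Tregs, and the sign of the C1qb difference rested on replicate 3: it was 3.91 from SP/naive Tregs with all libraries and -4.45 without that library.

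Per kilobase of exon, the scale on which genes can be compared, mean levels in graft Tregs were 125 ± 175 CPM per kb for Lyz2, 33.6 ± 30.5 for Ccl8, 13.1 ± 22.6 for C1qb and 0.463 ± 0.802 for C1qc. Each SD was near or above its mean. In DLN/CD127hi Tregs the order of the first pair was turned, with 617 ± 527 CPM per kb for Ccl8 and 509 ± 89.6 for Lyz2, a gap smaller than the Ccl8 spread.

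The receptors and the lysosomal marker were at or under the limit of detection in graft Tregs. Csf1r, which encodes the receptor that sustains macrophages, had 0 reads in all 3 graft Treg libraries. It was at 33.1, 27.5 and 47.2 CPM in SP/tolerant CD45+CD4- cells, a level at least 42.6-fold higher (adjusted p = 0.00877). SP/CD127hi Tregs also carried it, at 16.8, 12.9 and 20.6 CPM, with no overlap with graft Tregs (at least 19.8-fold lower in the graft, adjusted p = 0.13). Csf1r overlaps Hmgxb3 on the opposite strand, and the library kit does not mark strand, so reads in the overlap cannot be told apart.

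Adgre1, which encodes the F4/80 surface antigen, had 0 reads in graft Tregs and 42.3, 36.6 and 22.4 CPM in SP/tolerant CD45+CD4- cells, at least 40-fold lower in the graft (adjusted p = 0.0201). Cd36, a scavenger receptor for lipids, had 0 reads against 69.3, 16.5 and 62.4 CPM, at least 58.6-fold lower (adjusted p = 0.00964). Cd68, a glycoprotein of lysosomes and endosomes, had 1 read in the 3 graft Treg libraries against 37.8, 23.4 and 31.2 CPM, a ratio of 0.00304 (interval 7.67e-05 to 0.0171, adjusted p = 0.0123). Mrc1, the mannose receptor, had 0 reads against 10.8, 10.2 and 8.15 CPM, at least 11.5-fold lower without passing the test (adjusted p = 0.0655). It was called lower in 4 of 14 alternatives, the likelihood ratio test, DESeq2, the replicate block and the libraries of the same sequencer, in a range of adjusted p from 0.00472 to 0.198.

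Counted over the 10 genes, 5 passed in graft Tregs against SP/tolerant CD45+CD4- cells, where 2.56% of all 25347 genes tested did. Of the 5, Ccl8 was higher (background 1.18%) and Cd36, Adgre1, Csf1r and Cd68 were lower (background 1.37%), and the median log2 difference of the 10 was -5.64 against -0.02 for all genes. An unadjusted p under 0.05 was reached by 8 of the 10 and by 15.2% of all genes, and DESeq2 called 5 (Mrc1, Cd36, Adgre1, Csf1r and Cd68) and 6.04% of all genes. Leaving out 1 graft Treg library ended the lower calls of Cd36, Adgre1 and Csf1r whichever it was, with adjusted p from 0.0534 to 0.1, and that of Cd68 without replicate 1 (0.082) or 2 (0.0869). Of 14 alternatives, 11 kept the calls of Cd36, Adgre1 and Csf1r and 12 that of Cd68, DESeq2 among them. A lower level in bulk RNA cannot separate fewer cells of a type from less RNA per cell. The genes were chosen as macrophage genes and the reference serves for myeloid transcripts. The lower calls and the median therefore cannot be read apart from that choice.

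**Figure D3:**
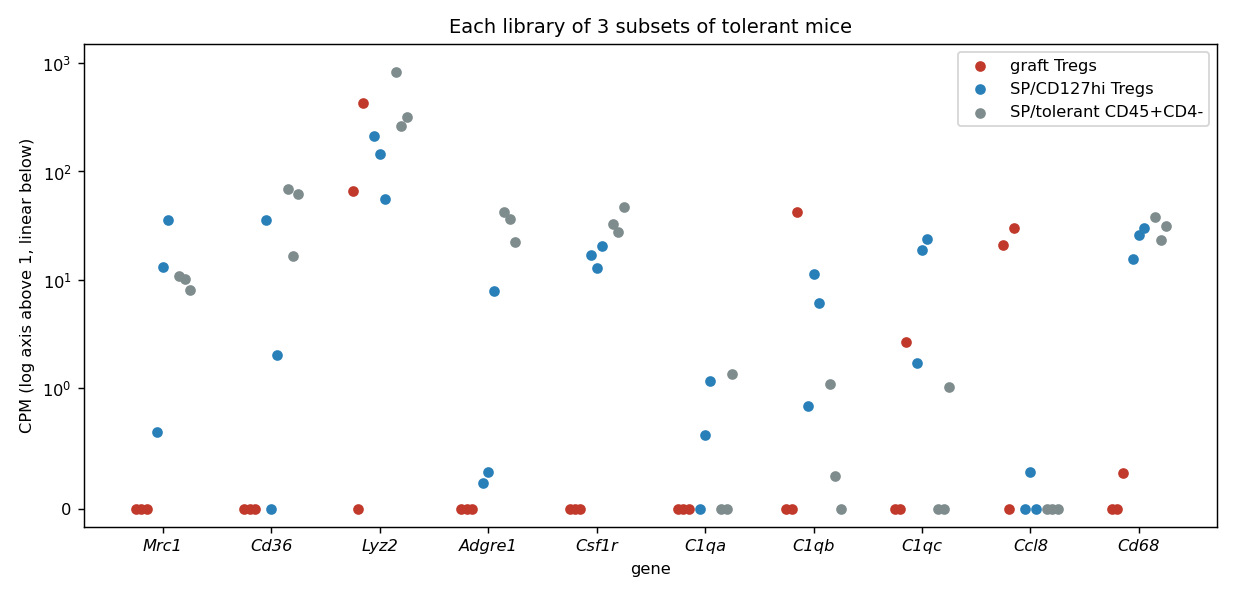
CPM of the 10 genes in each library of graft Tregs (red), SP/CD127hi Tregs (blue) and SP/tolerant CD45+CD4- cells (grey), on a logarithmic axis above 1 CPM and a linear one below. For Mrc1, Cd36, Adgre1, Csf1r and Cd68 the graft points lie at or near 0 below all grey points, while for Ccl8 2 of the 3 graft points stand above all others.

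Against splenic Tregs, none of the receptor genes passed. Mrc1 was at 0.637, 13.2 and 35.6 CPM in SP/CD127hi Tregs and at 13.2, 1.69 and 0.758 CPM in SP/naive Tregs, both above the 0 of the graft libraries. Cd68 was at 15.7, 26 and 29.8 CPM in SP/CD127hi Tregs, and Cd36 at 35.4, 0 and 2.03 CPM, so that Cd36 there came from mainly 1 library. Of the 10 genes only Ccl8 passed against SP/naive (background 0.13%), SP/CD127hi (0.103%) and SP/CD127-/lo Tregs (0.0829%), while 7, 6 and 5 had an unadjusted p under 0.05, against 7.93%, 8.73% and 7.66% of all genes. The 3 comparisons share the graft libraries. With DESeq2, Csf1r was lower in the graft against each of the 3 subsets (adjusted p = 0.0238, 0.000559 and 0.00443 for SP/naive, SP/CD127hi and SP/CD127-/lo Tregs), and Mrc1, Cd36 and Cd68 were lower against SP/CD127hi Tregs. DESeq2 called 0.734%, 0.998% and 0.726% of all genes in these comparisons, and Ccl8 in none of the 3. Over 14 alternatives the adjusted p of Csf1r ran from 0.0238 to 0.622 against SP/naive, from 0.000559 to 0.527 against SP/CD127hi and from 0.00443 to 0.673 against SP/CD127-/lo Tregs.

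Away from the graft, DLN/CD127hi against DLN/naive Tregs was the 1 comparison in which a gene of the 10 passed, Ccl8 (1 of 10, background 0.951%). The median log2 difference of the 10 there was 3.26, against 0.40 for all genes, and 5 of the 10 had an unadjusted p under 0.05, against 10.6% of all genes. DESeq2 called 2, Mrc1 and Csf1r, both higher in DLN/CD127hi Tregs, against 3.78% of all genes. In the other comparisons edgeR's test called 0 of 10 in DLN/CD127hi against DLN/CD127-/lo Tregs (background 0.418%), in SP/CD127hi against SP/CD127-/lo Tregs (0.0907%), in SP/tolerant against SP/naive CD45+CD4- cells (0.0355%) and for the difference of the CD127 contrast between DLN and spleen (0.118%). At an unadjusted p under 0.05 these 4 comparisons held 5, 2, 0 and 2 of the genes, against 8.75%, 6.74%, 4.46% and 7.82% of all genes. DESeq2 called 1, 1, 0 and 1 of them, namely Cd68, Cd36 and Cd68, against 2.88%, 0.343%, 0.154% and 1.18% of all genes. Cd68 was at 0.545, 94.6 and 83.4 CPM in DLN/CD127-/lo Tregs and at 0, 9.46 and 0 CPM in DLN/CD127hi Tregs, an order opposite to that of Ccl8. In DLN/CD127hi Tregs, Mrc1 (0.973, 77.2 and 1.04 CPM) and Csf1r (0.973, 57.5 and 1.04 CPM) stood high in replicate 2 alone.

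Summed over the 10 genes, graft Tregs had 86.9, 0 and 503 CPM, and SP/tolerant CD45+CD4- cells 1020, 378 and 490 CPM. The 5 receptor and lysosomal genes alone gave 0, 0 and 0.298 CPM in graft Tregs and 114 to 193 CPM in SP/tolerant CD45+CD4- cells. They gave 52.3 to 95.8 CPM in SP/CD127hi, 8.12 to 27 CPM in SP/naive and 4.8 to 45.4 CPM in SP/CD127-/lo Tregs. DLN/naive Tregs were also low in them, at 0.71 to 2.8 CPM, with Lyz2 at 322, 0 and 404 CPM. In DLN/CD127-/lo and DLN/CD127hi Tregs the 5 genes gave 4.36 to 105 and 4.15 to 145 CPM. The total of graft Tregs replicate 3 lay within the range of the mixed leukocytes, with Lyz2 at 427 CPM. Its receptor genes lay below theirs. CD4+ Foxp3- cells summed to 0.328 to 5.38 CPM in naive and 18 to 29.4 CPM in tolerant mice. In the tolerant libraries Cd68 gave 15.3 and 18.7 CPM of this in replicates 1 and 2, and Lyz2 gave 11.8 CPM in replicate 3.

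Other macrophage and monocyte markers were also unevenly present. Of 32 further macrophage markers, 13 were above 3 reads in any graft Treg library and 3 in every one, namely Apoe (1.62, 8.78 and 43.2 CPM), the protease gene Ctss (354, 723 and 583 CPM) and the NADPH oxidase subunit Cybb (71.2, 51 and 30.1 CPM). All 3 were also read in CD4+ Foxp3- cells, where Lyz2 was low: Ctss averaged 463 ± 117 CPM in naive and 468 ± 221 CPM in tolerant mice (SD, n = 3), Cybb 41.5 ± 38 and 34.6 ± 7.79 CPM, and Apoe 9.66 ± 8.18 and 5.29 ± 3.12 CPM. No read in any of the 3 libraries fell on 10 of the 32, among them Fcgr1, Vsig4, Folr2, Lyve1 and Trem2. Tyrobp was at 1.35, 0.549 and 69.7 CPM, high in the library with most Lyz2. Aif1 ran the other way, at 27.6, 11.5 and 0 CPM. Ccl6 was at 17.9, 0 and 27.4 CPM, with reads in the same graft Treg libraries as Lyz2 and Ccl8. It had 2 reads in SP/CD127hi and 1 in DLN/naive Tregs, and none in the other Treg and CD4+ subsets. In SP/tolerant CD45+CD4- cells Ccl6 was at 75.1, 75.6 and 55 CPM. None of the 31 that entered the fit (Vsig4 did not) passed against a splenic Treg subset, and 3 (Tyrobp, Fcer1g and Cybb) were lower than in SP/tolerant CD45+CD4- cells. Of 6 genes of the CSF1 receptor axis, Spi1, which encodes PU.1, was at 0, 0.274 and 0 CPM and was lower than in SP/tolerant CD45+CD4- cells together with Irf8. Of 8 other genes of the complement pathway, C3 alone exceeded 3 reads in a graft Treg library (1.49 CPM in replicate 3), and 0 of 8 passed in any comparison of graft Tregs.

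Markers of some other cells were also uneven across the graft Treg libraries. Of 8 granulocyte and monocyte markers, S100a8 and S100a9 had no read in graft Tregs. Ly6c2 was at 18.1, 0 and 0 CPM, higher than in SP/naive Tregs by 4.18 ± 1.01 on the log2 scale (adjusted p = 0.0431) from that 1 library. The list summed to 58 to 73.5 CPM in naive and 62.6 to 73.6 CPM in tolerant CD4+ Foxp3- cells. Its sum was 0 to 18.1 CPM in graft Tregs. Of 8 B cell markers, 4 were above 3 reads in replicate 3, where the list summed to 133 CPM against 0.271 and 7.41 CPM in replicates 1 and 2, with Ms4a1 at 0, 0 and 0.298 CPM and Cr2 at 0, 0 and 69.7 CPM. Of 6 CD8 and NK cell markers, 3 were above 3 reads in replicate 3, summing to 131 CPM against 40.1 and 0.274 CPM. Replicate 3 was thus highest for lysozyme, B cell and CD8 and NK cell markers alike, and replicate 2, empty of the 10 genes, was highest for kidney markers (974 CPM against 134 and 47.4). Their part in the Lyz2, Ccl8 and C1qb levels was not tested.

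**Figure D4:**
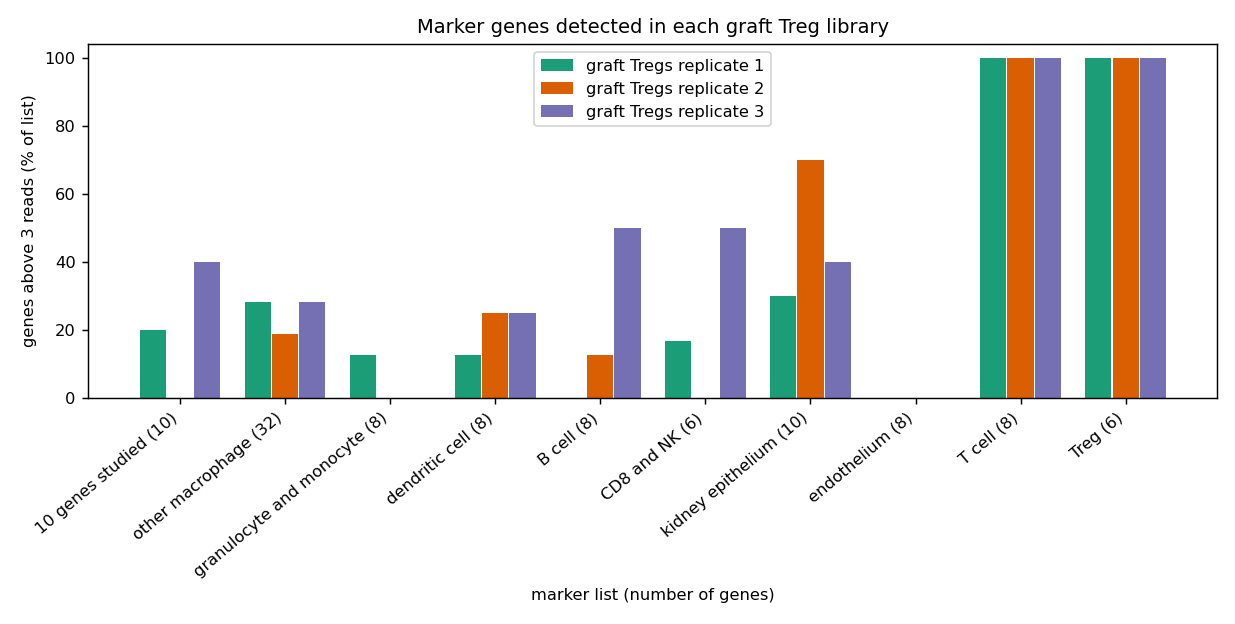
Share of each marker list with more than 3 reads in each graft Treg library, with list sizes in parentheses on the horizontal axis. T cell and Treg lists reach 100% in all 3 libraries, the 10 genes studied reach 20%, 0% and 40%, and no endothelial marker exceeds 3 reads.

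Over the 24 spleen and graft libraries, the genes whose log2 CPM was most like the log2 summed CPM of the 10 were Chsy1 (Pearson r = 0.836), Chst15 (0.83), Mknk2 (0.781), Ep300 (0.778) and Irak2 (0.772). The points share library depth and are not independent replicates of a condition, so this is a description. None of these 5 is in the macrophage lists used here, while for Lyz2 alone, over all 33 libraries, the gene most alike was Apoe (r = 0.765), which is one of the 32 further macrophage markers.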

How the data were processed

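RNA from sorted cells was amplified with SMART-Seq v4, tagmented with Nextera XT, which does not mark strand, and sequenced on a NextSeq 500 (spleen, graft) or MiSeq (DLN). Per the labels the authors trimmed with Trim Galore and aligned with STAR; the deposited files hold unnormalised read counts per gene (unstranded column), in the layout of STAR although the methods name HTSeq, and reads outside genes were left out of the library totals. Batch-normalised counts (ComBat-Seq, in the study's methods) were not used here.

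Counts were analysed with edgeR 4.0.16 in R 4.3.3. Genes reaching 1 CPM in any library (25347) entered 1 quasi-likelihood model of all 33 libraries with TMM factors; Benjamini-Hochberg adjusted p under 0.05 over all genes was called. The SE is the log2 difference divided by the square root of F. Ratios with 1 to 3 reads carry exact 95% intervals; at-least folds use 3 reads per library. DESeq2 1.42.0 and other alternatives are given in the closing section. Symbols came from GENCODE vM21 (GRCm38); 119 identifiers had none. Named genes were the 10 members, list genes called in graft against splenic Tregs or leading a list, Foxp3, Kap and the 5 most alike genes. Others (Tyrobp, Fcer1g, Aif1, Ccl6, Spi1, Lyz1) were named after their values were seen. The members and lists were chosen with earlier results of these data known.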

Additional observations from a re-analysis of the deposited data

How the results depend on the processing

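Counts of the 10 genes called were recomputed under each alternative, and genes called among all tested follow in parentheses. Against SP/naive Tregs the count of 1 (33) became 0 with the likelihood ratio test (27), with at least 10 counts in at least 3 libraries (6), with libraries of the same sequencer (35) and with the compared subsets alone (12). Against SP/CD127hi Tregs 1 (26) became 2 with the likelihood ratio test (40), 4 with DESeq2 (253), and 0 with the stricter filter (0), the same sequencer (27) or the compared subsets (1). Against SP/CD127-/lo Tregs 1 (21) became 0 with the stricter filter (0), the same sequencer (15) or the compared subsets (3). Against SP/tolerant CD45+CD4- cells the count of 5 (648) ran from 4 with the compared subsets alone to 6 with the likelihood ratio test. Genes called among all tested ran there from 631 with the stricter filter to 1532 with DESeq2. For DLN/CD127hi against DLN/naive Tregs 1 (241) became 2 with DESeq2 (959), 0 with the stricter filter (131) and 0 with the replicate block (218). For DLN/CD127hi against DLN/CD127-/lo Tregs 0 (106) became 1 with DESeq2 (Cd68; 730), and 1, Ccl8, with the same sequencer (9) or the compared subsets (10). With DESeq2 0 also became 1 in the splenic CD127 contrast (87) and in the DLN minus spleen difference (298). Equal counts can hide other genes: DESeq2 called Ccl8 in none of these comparisons, and its calls were Csf1r alone against SP/naive and SP/CD127-/lo Tregs, Mrc1, Cd36, Csf1r and Cd68 against SP/CD127hi Tregs, the same with Adgre1 against SP/tolerant CD45+CD4- cells, and Mrc1 and Csf1r in DLN/CD127hi against DLN/naive Tregs. The likelihood ratio test called Csf1r and Cd68, not Ccl8, against SP/CD127hi Tregs and Mrc1, not Ccl8, against DLN/naive Tregs.

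Leaving out 1 library gave 0 to 1 called against each splenic Treg subset, 1 to 5 against SP/tolerant CD45+CD4- cells and 0 to 1 in both DLN comparisons. The mean summed CPM of graft Tregs, 197, was 43.5 to 295 with 1 library left out and 32.4 without Lyz2. With 1 library left out the log2 difference of Lyz2 ran from -0.27 to 3.14 against SP/naive, from -2.05 to 0.85 against SP/CD127hi and from -1.78 to 2.66 against SP/CD127-/lo Tregs, and that of C1qb from -4.45 to 5.03, -7.15 to 2.03 and -5.81 to 3.25, each lowest without graft Tregs replicate 3. Against SP/tolerant CD45+CD4- cells C1qb ran from -3.56 to 6.19, C1qc from -3.09 to 4.40 and C1qa from -4.06 to 0. Lyz2 also turned negative without SP/CD127hi replicate 3 (-0.11) or SP/CD127-/lo replicate 2 (-0.04). Beyond the fewer samples or genes that these settings hold, the cause was not tested.

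Replicate numbers did not pair the libraries: correlations of same-numbered deviations lay between -0.081 and 0.063. With the replicate block the Lyz2 difference from SP/CD127hi Tregs was -0.25, and genes called among all tested rose from 33 to 61 against SP/naive, from 26 to 50 against SP/CD127hi and from 21 to 40 against SP/CD127-/lo Tregs. Over all genes DESeq2 called 186 and 184 against SP/naive and SP/CD127-/lo Tregs, and in DLN/CD127hi against DLN/naive Tregs the same sequencer gave 18 and the compared subsets 20. Depth limits genes at or under 3 reads, where absence cannot be told from a low level.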
